A study of Mus musculus with 10 samples.

Results

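The 9 serpin genes described here are copies from a pair of neighbouring mouse gene groups: Serpina1a, Serpina1b, Serpina1c, Serpina1d and Serpina1e, the mouse counterparts of human alpha-1-antitrypsin, and Serpina3c, Serpina3k, Serpina3m and Serpina3n, the mouse counterparts of human alpha-1-antichymotrypsin. They were chosen by gene family out of 31053 genes in the count tables. Expression was measured by Visium, in which a frozen tissue section (10 µm) is laid over a slide of barcoded capture spots, so that each mRNA copied on the slide carries the address of its spot and a unique molecular identifier (UMI). The 10 sections came from 7 tissues, all of which the sample labels name hepatoblastoma. According to the study, NEJ146, NEJ634, NEJ687 and NEJ723 were tumors of ABC-Myc mice (Alb-Cre;CAG-MYC), in which a human MYC transgene stands behind a floxed STOP cassette that Cre, driven by the albumin promoter, removes in cells of the hepatocyte lineage, and NEJ638, NEJ654 and NEJ677 were healthy mouse livers. The mice had a C57BL/6J background. The genotype of each healthy liver and the age of the animals are not given in the sources used here. NEJ146 was represented by 4 sections and each of the other 6 tissues by 1 section. The words tumor and liver are used below in this sense, each tissue is given by itself, and no mean or test was computed between tumors and livers.

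Serpins are secreted protease inhibitors that trap their target enzyme by a bait loop which the enzyme cuts. Alpha-1-antitrypsin is one of the most abundant plasma proteins made by hepatocytes, and its best known target is neutrophil elastase. The mouse carries several copies of each gene, which differ most in the bait loop and thus in which proteases they meet. Serpina3n is known as an acute phase gene, raised by inflammation, and Serpina3k encodes a hepatocyte serpin known as contrapsin.

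All 9 genes lay on chromosome 12 of the mouse genome (GRCm38, which is mm10), within 686174 bases. The 5 Serpina1 copies were on the minus strand, in the order Serpina1b (chr12:103728156-103830373), Serpina1d (chr12:103763594-103773592), Serpina1a (chr12:103853589-103863562), Serpina1c (chr12:103894926-103904887) and Serpina1e (chr12:103946931-103958975). Serpina3c (chr12:104146382-104153870) was also on the minus strand, whereas Serpina3k (chr12:104338486-104346144), Serpina3m (chr12:104338486-104394257) and Serpina3n (chr12:104406729-104414329) were on the plus strand. The annotated span of Serpina1b contained that of Serpina1d, and Serpina3k and Serpina3m shared 60 exonic bases, none of them within the last 500 bases of either transcript, where Visium reads fall. Near-identical copies can share reads. Of the 381 possible reads of 120 bases in the last 500 bases, 44.4% matched another gene with at most 1 mismatch for Serpina1a, 23.4% for Serpina1c, 16.0% for Serpina1b and 15.8% for Serpina1d, against 1.31% for Serpina1e and 0% for each of the 4 Serpina3 copies. Levels of Serpina1a to Serpina1d are therefore less certain than those of Serpina1e and the Serpina3 copies. The matching genes were other Serpina1 copies and Gm8893, which is not among the 9 and came first for Serpina1a. Without any mismatch, 30 of the 381 matched for Serpina1a, 13 for Serpina1c and 0 for each other copy.

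The promoters of the Serpina1 copies resembled each other closely, as did those of Serpina3c and Serpina3n. RefSeq promoter windows of 300 bases, from 250 bases before to 50 bases after the annotated start, matched 7 of the 9 genes, all but Serpina3k and Serpina3m. The start is that of RefSeq, which for Serpina1b and Serpina1e lies inside the GENCODE span given above and not at its end. Identity between pairs of Serpina1 windows was between 91.7% and 98.4% over the aligned bases (10 pairs). Serpina1b, the most abundant copy in most tissues, and Serpina1e, the copy whose order among the tissues departed from the others, were 98.4% identical over 248 aligned bases. Their windows are shown 5′ to 3′ on the minus strand, Serpina1b at chr12:103738140-103738439 and Serpina1e at chr12:103956848-103957147, with the forkhead-like letters TGTTTGC in capitals.
Serpina1b: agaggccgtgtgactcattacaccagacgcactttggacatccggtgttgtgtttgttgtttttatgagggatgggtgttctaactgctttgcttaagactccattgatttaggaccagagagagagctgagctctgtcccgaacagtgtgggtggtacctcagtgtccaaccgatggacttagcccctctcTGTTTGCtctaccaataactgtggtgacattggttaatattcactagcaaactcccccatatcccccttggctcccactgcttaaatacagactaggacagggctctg
Serpina1e: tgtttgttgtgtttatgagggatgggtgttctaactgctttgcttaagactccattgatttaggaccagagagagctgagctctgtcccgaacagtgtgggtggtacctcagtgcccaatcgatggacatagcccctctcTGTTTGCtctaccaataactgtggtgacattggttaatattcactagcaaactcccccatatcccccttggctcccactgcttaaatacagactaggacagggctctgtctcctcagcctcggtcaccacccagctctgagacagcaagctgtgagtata
TGTTTGC was found, with both strands searched, in 5 of the 7 windows, namely all 5 Serpina1 windows and neither Serpina3 window, and in 5.07% of all 32851 mouse promoter windows. It began 58 bases before the start of Serpina1b and 110 bases before that of Serpina1e, whose annotated start lies further downstream relative to the same sequence. The letters CACGTG, a MYC-type E-box, which do not overlap TGTTTGC, were in 0 of the 7 windows and in 7.15% of all windows. A match in these letters is a description of the sequence and was not tied to any factor by these data.

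Serpina3c and Serpina3n had almost the same promoter but, as described below, very different levels in 6 of the 7 tissues. Their windows, Serpina3c at chr12:104153823-104154122 on the minus strand and Serpina3n at chr12:104406458-104406757 on the plus strand, were 93.5% identical, and the 19 of 294 aligned bases that differ are in capitals.
Serpina3c: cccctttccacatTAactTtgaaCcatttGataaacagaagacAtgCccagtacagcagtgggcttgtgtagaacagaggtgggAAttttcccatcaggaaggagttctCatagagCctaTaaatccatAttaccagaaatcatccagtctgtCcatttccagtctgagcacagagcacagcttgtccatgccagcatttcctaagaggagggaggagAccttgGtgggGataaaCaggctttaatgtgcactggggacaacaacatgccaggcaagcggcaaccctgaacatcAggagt
Serpina3n: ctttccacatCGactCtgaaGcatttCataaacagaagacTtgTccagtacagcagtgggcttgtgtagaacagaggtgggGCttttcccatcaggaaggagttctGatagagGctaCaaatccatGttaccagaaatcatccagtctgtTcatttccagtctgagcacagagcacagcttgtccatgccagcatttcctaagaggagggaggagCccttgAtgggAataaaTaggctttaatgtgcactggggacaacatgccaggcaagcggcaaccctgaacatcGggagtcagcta

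Tissue spots numbered 1890 to 4878 per section and held 39280329 to 117077925 UMIs, with a median of 12134 to 28927 UMIs per spot and 2.46% to 7.22% mitochondrially encoded UMIs. All levels are UMIs per 1000000 UMIs of the tissue spots (CPM) and were not divided by transcript length, since each transcript is counted once from its 3′ end. The hepatocyte markers Alb, Apoa1, Ttr, Cyp2e1 and Hnf4a summed to 17716 to 27802 CPM in the 4 tumors and 79818 to 114044 CPM in the 3 livers, and Afp, the oncofetal marker, was at 2023 to 4248 CPM in the tumors and 3.79 to 9.63 CPM in the livers, so the marker levels separated the tissues named tumors from those named livers. Of the other lists, the neutrophil markers summed to 329 to 1045 CPM in the tumors and 7.48 to 18.1 CPM in the livers, the erythroid markers to 915 to 9419 and 80.0 to 226, and the endothelial markers to 58.2 to 115 and 145 to 172. Among the endothelial markers, Kdr and Clec4g were lower in each tumor, whereas Pecam1 (13.9 to 18.5 and 13.5 to 16.5) and Stab2 (28.9 to 47.6 and 43.4 to 59.0) overlapped. Sums for fibroblast markers (243 to 1244 and 96.4 to 410), macrophage markers (110 to 1209 and 179 to 316) and bile duct markers (3.81 to 89.5 and 4.05 to 10.1) overlapped, and the pancreatic markers were at or near 0 (0 to 0.067 and 0.682 to 1.02), with Prss1 at 0 in every tissue. The part of these cell types in the serpin levels was not tested. A spot holds several cells, so fewer hepatocytes and less RNA per hepatocyte cannot be told apart. NEJ146 was the tissue labelled total RNA, in place of polyA RNA, and had been processed with another program version, so that its preparation and its tissue cannot be told apart.

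The 9 serpins together made up 0.438% ± 0.050 of all UMIs in the 4 sections of NEJ146 (mean and SD), 0.652% in NEJ634, 0.781% in NEJ687 and 0.739% in NEJ723, against 2.53% in NEJ638, 2.89% in NEJ654 and 3.55% in NEJ677. In the tumors 6 of the 9 copies were below their level in each of the 3 livers, an order that 18.1% of the 8021 genes averaging 10 CPM or more had. By a stricter rule, a gap of at least 1 on the log2(CPM + 1) scale between the highest tumor and the lowest liver, 4 of the 9 were lower (Serpina1b, Serpina1c, Serpina3k and Serpina3m), against a background of 4.76% of genes. Just outside it were Serpina1a, with a gap of 0.97, and Serpina1d, with 0.92. A gap as large in the other direction was shown by 9.71% of genes and by 0 of the 9. The median gap was 0.97 over the 9 copies and -0.86 over all 8021 genes. With median-of-ratios scaling in place of CPM, which moves the median of all genes by -0.45 (NEJ634) to 0.27 (NEJ677) on the log2 scale, 6 of the 9 copies and 573 genes passed.

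**Figure D1:**
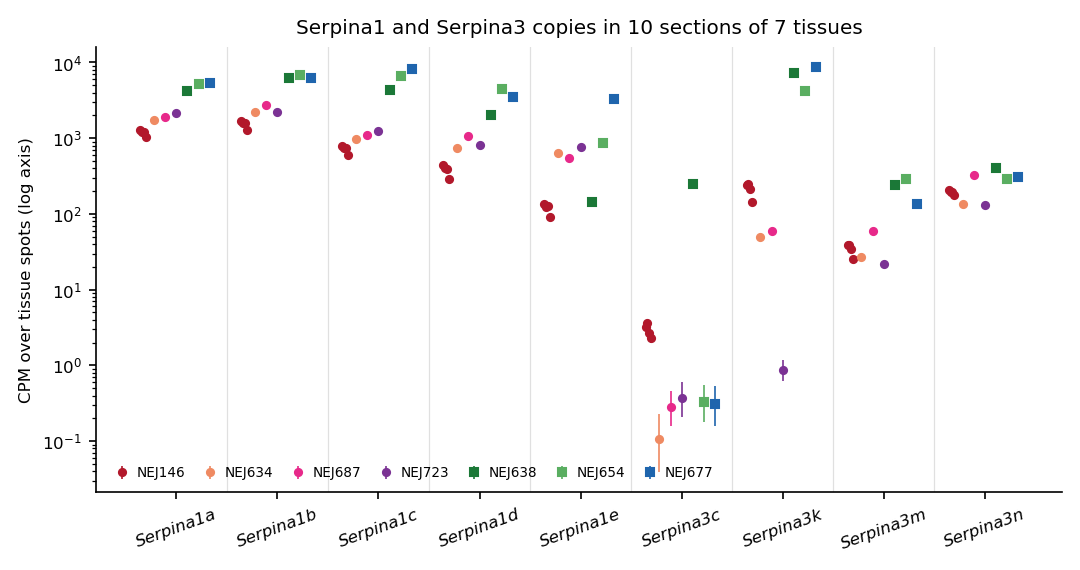
Level of each of the 9 serpin copies in each of the 10 sections, in CPM on a log axis, with circles for the 4 tumors, squares for the 3 livers and bars for the 95% Poisson interval of the count. Serpina1a to Serpina1d and Serpina3k and Serpina3m are lower in every tumor section than in every liver, Serpina1e is at 143 CPM in the liver NEJ638 and 3325 CPM in NEJ677, and Serpina3c stands at 247 CPM in NEJ638 alone.

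The Serpina1 copies, alpha-1-antitrypsin, comprised 4 copies that were lower in each tumor than in each liver and a copy, Serpina1e, that was not. Serpina1b was at 1533 ± 167 CPM in NEJ146 (SD, n = 4), 2186 in NEJ634, 2710 in NEJ687 and 2219 in NEJ723, against 6307, 6883 and 6148 in the livers NEJ638, NEJ654 and NEJ677. The 4 sections of NEJ146 lay at 1683, 1582, 1574 and 1294 CPM, so the groups did not overlap, and the smallest ratio of a liver to a tumor was 2.27. Among the 3 livers no neighbours in the order differed by more than 2 SD of the NEJ146 sections, the only section-to-section spread at hand.

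Serpina1c was the copy with the widest separation within the Serpina1 group. It was at 717 ± 81.0 CPM in NEJ146 (SD, n = 4), 969 in NEJ634, 1114 in NEJ687 and 1253 in NEJ723, and at 4377 CPM in NEJ638, 6708 in NEJ654 and 8123 in NEJ677. The lowest liver stood 3.49-fold above the highest tumor. Serpina1a was at 1183 ± 111 CPM in NEJ146 (SD, n = 4), 1765, 1907 and 2166 in NEJ634, NEJ687 and NEJ723, and 4252 in NEJ638, 5207 in NEJ654 and 5355 in NEJ677, a smallest ratio of 1.96. Serpina1d was at 380 ± 62.7 CPM in NEJ146 (SD, n = 4), 752, 1074 and 820 in NEJ634, NEJ687 and NEJ723, and 2032, 4447 and 3488 in the same livers, a smallest ratio of 1.89. In each of these 4 copies NEJ146 was the lowest tissue, and its section 4 the lowest of its sections.

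Serpina1e had no such separation. It was at 119 ± 19.1 CPM in NEJ146 (SD, n = 4), 636 in NEJ634, 554 in NEJ687 and 775 in NEJ723, and at 143 CPM in NEJ638, 868 in NEJ654 and 3325 in NEJ677. The livers spanned 23.2-fold and so held both the second lowest and the highest level, with 3 of the 4 tumors between them. A range of at least 4 on the log2 scale within the 3 livers was shown by 0.399% of genes. In the order NEJ654, NEJ723, NEJ634, NEJ687 each neighbouring pair differed by less than 2 SD of the NEJ146 sections, as did NEJ638 and NEJ146. Xist, which is transcribed from the inactive X chromosome of females, was at 46.8 CPM in NEJ638 and 49.5 in NEJ654 but at 0.025 in NEJ677, and among the tumors at 38.9 in NEJ146, 63.9 in NEJ634, 0.052 in NEJ687 and 0.069 in NEJ723. The part of sex in the Serpina1e level was not tested.

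The division of Serpina1 UMIs among the copies also differed between tissues. The part of hepatocyte content in these shares was not tested. Serpina1b had the largest share in 6 of the 7 tissues, from 28.5% in NEJ654 to 39.0% ± 0.16 in NEJ146 (SD, n = 4), and in NEJ677 Serpina1c led with 30.7% before Serpina1b with 23.3%. Serpina1c took 15.1% to 18.2% of Serpina1 UMIs in the 4 tumors and 25.6% to 30.7% in the 3 livers, without overlap, and Serpina1a took 25.9% to 30.1% in the tumors and 20.3% to 24.8% in the livers, also without overlap and in the other direction. Serpina1a and Serpina1c are the copies whose 3′ ends most often matched another gene, Gm8893 among them. The part of shared reads in their shares was not tested. Serpina1e was 0.837% of Serpina1 UMIs in NEJ638, 3.02% ± 0.17 in NEJ146 (SD, n = 4), 3.60% in NEJ654, 7.53% in NEJ687, 10.1% in NEJ634, 10.7% in NEJ723 and 12.6% in NEJ677.

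**Figure D2:**
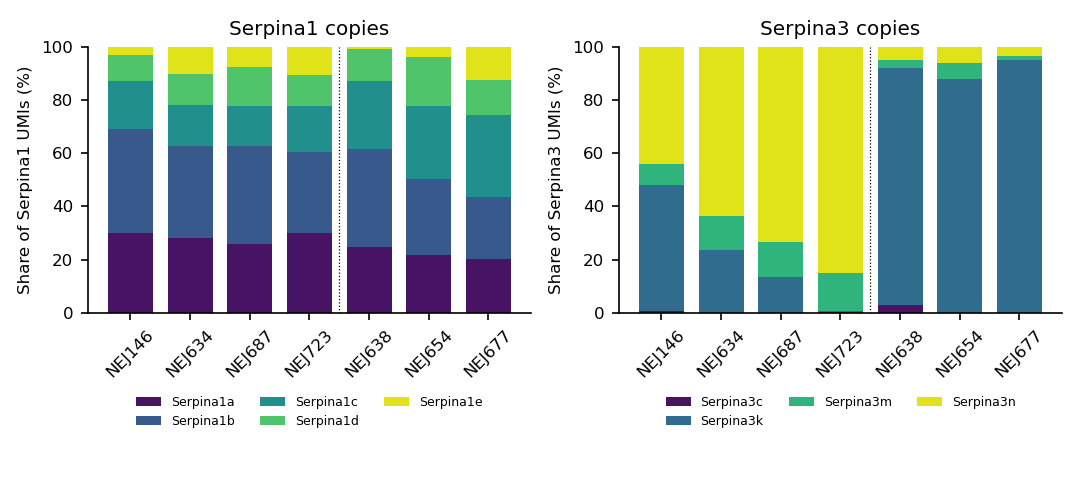
Stacked bars of the percent of Serpina1 UMIs (5 copies) and of Serpina3 UMIs (4 copies) that each copy contributes in each tissue, with a dotted line between the 4 tumors and the 3 livers (NEJ146 is the mean of 4 sections). Serpina1b leads in 6 of 7 tissues, whereas the leading Serpina3 copy is Serpina3k in the livers (87.8% to 95.1%) and Serpina3n in NEJ634, NEJ687 and NEJ723 (63.6% to 85.1%).

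Among the Serpina3 copies Serpina3k led in the 3 livers and Serpina3n in NEJ634, NEJ687 and NEJ723, while in NEJ146 their shares lay within the section SD and Serpina3n was ahead in section 4 (180 against 145 CPM). Serpina3k, contrapsin, was at 7309 CPM in NEJ638, 4166 in NEJ654 and 8620 in NEJ677, in NEJ638 and NEJ677 above each Serpina1 copy on this UMI scale. In the tumors it was at 212 ± 46.9 CPM in NEJ146 (SD, n = 4, with sections at 242, 248, 214 and 145), 49.1 in NEJ634, 59.9 in NEJ687 and 0.871 in NEJ723. The last value rests on 38 UMIs of 43641797 and has a 95% Poisson interval of 0.616 to 1.20 CPM, which, like all such intervals here, covers counting error only. The lowest liver stood 19.6-fold above the highest tumor, NEJ146, a gap of 4.29 on the log2(CPM + 1) scale that was 6.10 without NEJ146. As a share of UMIs Serpina3k was higher in the spots off the tissue, at 90.9 CPM beside NEJ634, 168 beside NEJ687 and 2.26 (59 UMIs) beside NEJ723. Per spot it was lower off than on the tissue in NEJ634 (1.02 against 1.47 UMIs). It was higher off the tissue in NEJ687 (1.32 against 0.772) and NEJ723 (0.0228 against 0.0159). The levels of NEJ687 and NEJ723 thus do not stand above those off their tissue. On the log2(CPM + 1) scale the 7 tissues spanned 12.17, and the 6 without NEJ723 spanned 7.43. NEJ723 was also the tissue with the lowest levels of Cyp2e1, a cytochrome of pericentral hepatocytes (1.21 CPM, against 45.6 to 237 in the other tumors and 2593 to 3599 in the livers), and of Cyp2f2, a periportal one (8.16 CPM, against 20.3 to 76.0 and 727 to 1072).

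Serpina3n, the acute phase copy, was the most even of the 9. It was at 194 ± 10.5 CPM in NEJ146 (SD, n = 4), 134 in NEJ634, 329 in NEJ687 and 133 in NEJ723, and at 408 CPM in NEJ638, 288 in NEJ654 and 304 in NEJ677, a 3.07-fold range over the 7 tissues. The tumor NEJ687 lay above the livers NEJ654 and NEJ677, so the groups overlapped, although with median-of-ratios scaling they no longer did (a gap of 0.25 on the log2 scale). Serpina3m was at 34.6 ± 6.44 CPM in NEJ146 (SD, n = 4), 27.2 in NEJ634, 59.1 in NEJ687 and 22.1 in NEJ723, and at 242 CPM in NEJ638, 290 in NEJ654 and 137 in NEJ677. Every liver was at least 2.29-fold above every tumor.

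Serpina3c was found in quantity in a single tissue, through which alone it reached the mean of 10 CPM. It was at 247 CPM in the liver NEJ638 (12650 UMIs, 95% Poisson interval 243 to 252), against 0.329 in NEJ654 (14 UMIs) and 0.305 in NEJ677 (12 UMIs). In the tumors it was at 2.94 ± 0.568 CPM in NEJ146 (SD, n = 4), 0.106 in NEJ634 (6 UMIs), 0.279 in NEJ687 (16 UMIs) and 0.367 in NEJ723 (16 UMIs). NEJ638 was also the liver in which Serpina1e was lowest. Serpina3c and Serpina3n, the pair with promoters 93.5% identical, thus stood at 247 and 408 CPM in NEJ638 but at 0.329 and 288 CPM in NEJ654.

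As a result the Serpina3 UMIs were 87.8% to 95.1% Serpina3k in the livers but 47.4% ± 4.30 in NEJ146 (SD, n = 4), 23.4% in NEJ634, 13.4% in NEJ687 and 0.557% in NEJ723. Serpina3n was 44.2% ± 4.70, 63.6%, 73.4% and 85.1% of the family in the same order of tumors, and 3.35% to 6.07% in the livers. The Serpina3 sum was 156 to 449 CPM in the 4 tumors and 4743 to 9061 CPM in the 3 livers, and the Serpina1 sum 3933 to 7359 and 17112 to 26438 CPM. There were 8.91 ± 0.42 Serpina1 UMIs for each Serpina3 UMI in NEJ146 (SD, n = 4), 30.0 in NEJ634, 16.4 in NEJ687 and 46.3 in NEJ723, but 2.09 in NEJ638, 5.08 in NEJ654 and 2.92 in NEJ677. The ratio was higher in each tumor than in each liver.

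Of 16 other genes of serpin clade A, 14 were in the tables and 4 reached a mean of 10 CPM, and 0 of these 4 were lower in each tumor by the gap rule. Serpina6, the corticosteroid-binding globulin, was at 198, 532, 312 and 179 CPM in NEJ146, NEJ634, NEJ687 and NEJ723 and at 609 CPM in NEJ638, 408 in NEJ654 and 191 in NEJ677. Serpina10, the inhibitor of coagulation factor X, was at 57.9 to 209 CPM in the tumors and 134 to 174 CPM in the livers. Both overlapped between tumors and livers, as did Serpina11 (67.1 to 115 and 82.7 to 156 CPM). Serpina7, the thyroxine-binding globulin, was lower in each tumor, at 5.40 to 13.4 against 15.7 to 30.9 CPM, but by a gap of 0.22, short of the rule. Below the minimum, Serpina9 was at 0 to 0.088 CPM in the tumors and 1.20 to 9.65 in the livers, and Serpina12 at 0.046 to 0.956 and 3.58 to 33.6 CPM. Others below the minimum went the other way. Serpina5 was at 1.15 to 5.04 CPM in the tumors and 0.047 to 0.204 in the livers, and Serpina3i at 0.566 to 0.905 and 0.235 to 0.274. Serpina3b (0.203 to 0.348 and 0.024 to 0.098) and Serpina3a (0.115 to 0.584 and 0.024 to 0.102) were also higher in each tumor. Their gaps were only 0.13 and 0.02 on the log2(CPM + 1) scale, and their levels rest on few UMIs. The share of all genes higher in each tumor by any gap was not computed. Serpina3f and Serpina3g overlapped. Of 6 other secreted hepatocyte proteins, albumin alone was lower by the rule, at 7839 to 13131 CPM in the tumors and 51663 to 85700 CPM in the livers (a gap of 1.98), whereas Apoa1, Ttr, Trf, Fgb and Ahsg did not reach it.

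Among 5 transcription factors known for acting at these promoters, 1 was lower by the rule. Cebpa, a factor of mature hepatocytes, was at 43.5 to 69.6 CPM in the 4 tumors and 176 to 187 CPM in the 3 livers, a gap of 1.33. Foxa2 was at 11.5 to 14.6 and 25.4 to 68.4 CPM, a gap of 0.76. Cebpb (60.2 to 145 and 85.7 to 191 CPM) and Hnf4a (123 to 178 and 166 to 200 CPM) overlapped between tumors and livers, and Stat3 was at 66.2 to 89.2 and 60.3 to 62.4 CPM. Of 4 proteases, 2 reached 10 CPM. Cela1, an elastase, was lower by the rule at 10.3 to 16.8 CPM in the tumors and 42.5 to 72.7 CPM in the livers. Prtn3, a neutrophil protease, was at 10.0 to 46.9 CPM in the tumors and 1.34 to 4.81 CPM in the livers, and Elane, neutrophil elastase, which did not reach the minimum, was at 1.85 to 14.2 and 0.165 to 0.274 CPM. The genes for the neutrophil enzymes were thus higher in each tumor than in each liver, as were the neutrophil markers, while the Serpina1 sum was lower. Which copies meet these enzymes was not measured.

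The genes whose levels over the 7 tissues were most like each copy differed between copies. By Pearson correlation of log2(CPM + 1), given as a description over 7 points, Serpina3k was nearest to Otc, the urea cycle enzyme ornithine transcarbamylase (r = 0.999), Acsm5 (0.997) and Fam167b (0.996), and 665 of 8008 genes (8.30%) had an r above 0.9. Serpina1e was nearest to Zfyve26 (0.93), Thap7 (0.91) and Tars (0.88), and 2 genes (0.025%) had an r above 0.9. Serpina3c was nearest to Avpi1 (0.99), Klf15 (0.94) and Homer2 (0.93), a likeness that rests on NEJ638, where Avpi1 was at 112 CPM against 61.5 to 72.3 elsewhere. Serpina3n was nearest to Acadvl, Cldn14 and Fgl1 (0.98 each). The other copies had nearest genes of their own, Pon2 for Serpina1a (r = 0.992), Aars for Serpina1b (0.996), Fam20a for Serpina1c (0.989), Mia3 for Serpina1d (0.992) and Tgds for Serpina3m (0.990).

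The copies were also unevenly spread within sections. Moran's I of log UMIs per 10000, computed over neighbouring spots, is near 0 for a gene scattered at random and approaches 1 for a gene that lies in patches. It was 0.1 or more in 73 of the 80 combinations of copy and section at 10 CPM or more, against a background of 15.2% of gene and section combinations. The 7 below it were Serpina3m in NEJ638, NEJ654, NEJ677 and NEJ687, Serpina3n in NEJ654 and in section 1 of NEJ146, and Serpina3c in NEJ638. Moran's I is low for genes with few UMIs, and the background holds many of these. For albumin, Ttr, Apoa1 and Ahsg it ran from 0.168 (Ahsg in NEJ654) to 0.853 (albumin in section 1 of NEJ146) over the 10 sections. In NEJ146 albumin (0.813 to 0.853) was above Serpina3k (0.715 to 0.759). A Moran's I of 0.1 or more was therefore not particular to the serpin copies. In NEJ687 each Serpina1 copy (0.459 to 0.563) was above albumin, Ttr, Apoa1 and Ahsg (0.341 to 0.427). The same held in NEJ723 (0.591 to 0.665 against 0.375 to 0.535) and NEJ677 (0.339 to 0.480 against 0.225 to 0.312). It did not hold in the other sections. The depth of a spot was itself patchy (Moran's I of log UMIs 0.62 to 0.88).

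The patchiest copy was not the same in each tissue. Serpina3k had a Moran's I of 0.757, 0.715, 0.759 and 0.740 in the 4 sections of NEJ146, 0.457 in NEJ634 and 0.303 in NEJ687, and 0.304 in NEJ638, 0.184 in NEJ654 and 0.363 in NEJ677. Serpina1e led in NEJ634 with 0.734, where Afp had 0.657, and was at 0.370 to 0.494 in NEJ146, 0.459 in NEJ687, 0.640 in NEJ723 and 0.105 to 0.355 in the livers. Serpina1b was at 0.300 to 0.401 in NEJ146, 0.427 in NEJ634, 0.563 in NEJ687, 0.608 in NEJ723 and 0.276 to 0.480 in the livers. It was the patchiest copy in NEJ687, NEJ654 and NEJ677, whereas Serpina1c led in NEJ723 (0.665) and Serpina1a in NEJ638 (0.349).

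The healthy liver is ordered along the lobule, from the portal triad, where blood enters, to the central vein. Spots were ranked by a score made from 5 periportal genes (Cyp2f2, Hal, Hsd17b13, Ass1, Pck1) and 5 pericentral genes (Glul, Cyp2e1, Cyp1a2, Oat, Slc1a2), none of them a serpin, were divided into 5 bins of equal size, and the most periportal-like bin was set against the most pericentral-like bin. In the 3 livers the Serpina1 copies and Serpina3k were higher on the periportal side, Serpina1e by the most, and Serpina3m was the copy that was higher on the pericentral side. From the pericentral-like to the periportal-like bin, Serpina1e was at 1514, 2575, 3670, 4590 and 4368 CPM in NEJ677, at 521, 776, 973, 1087 and 1056 CPM in NEJ654 and at 101, 140, 154, 175 and 162 CPM in NEJ638. In each liver it rose over the first 4 bins and was slightly lower in the last, with this shape although the levels of the livers differed 23.2-fold.

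An edgeR quasi-likelihood test over the 3 livers with the tissue as a block, chosen after the data had been seen, called 1949 of 11930 genes at an adjusted p under 0.05 (16.3%, of which 8.63% higher and 7.71% lower on the periportal side). It called 8 of the 8 copies tested, 7 of them higher and 1 lower on the periportal side. Serpina1e was higher by 1.16 on the log2 scale (SE 0.13, edgeR adjusted p = 8.4e-05), with 1.53 in NEJ677, 1.02 in NEJ654 and 0.68 in NEJ638. Serpina1a to Serpina1d were higher by 0.49 to 0.62 (edgeR adjusted p from 0.00016 to 0.00065), in 3 of 3 livers each. For comparison Cyp2f2, one of the ranking genes, was higher by 2.61, and albumin by 0.80 (edgeR adjusted p = 0.00012). Serpina3k, at 5770 CPM in the first and 8649 CPM in the last bin of NEJ638, 3571 and 4593 in NEJ654, and 6991 and 10050 in NEJ677, was higher by 0.55 (SE 0.070, edgeR adjusted p = 0.00018).

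Serpina3n and Serpina3m had smaller differences. Serpina3n was higher by 0.23 (SE 0.070, edgeR adjusted p = 0.042), in 3 of 3 livers, and Serpina3m lower by 0.24 on the periportal side, as a log2 difference of -0.24 (SE 0.065, edgeR adjusted p = 0.022), in 3 of 3. Neither call was kept by DESeq2 (adjusted p = 0.302 and 0.114) or without the liver NEJ654 (edgeR adjusted p = 0.186 and 0.084), Serpina3n was also lost without NEJ677 (0.193) and Serpina3m without NEJ638 (0.12). Without the tissue as a block 0 copies and 112 genes were called. The p-values rest on how the difference between the bins varied among these 3 sections, not on how the sections differed in level. Serpina3c, which the filter on low counts left out of the fits over the 3 livers and over the 7 tissues, was higher by 0.49 on the periportal side of NEJ638.

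**Figure D3:**
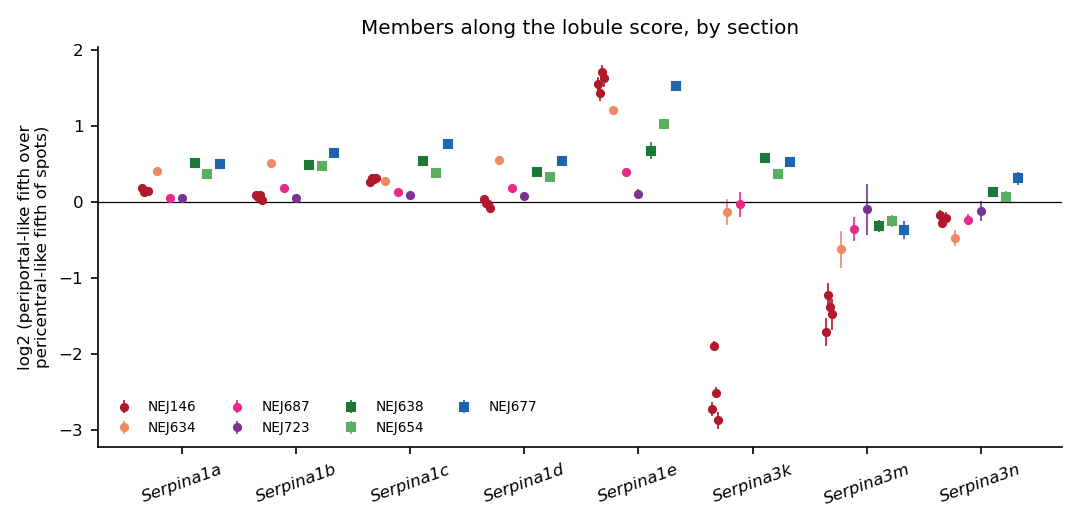
Difference of each serpin copy between the most periportal-like and the most pericentral-like of 5 bins of spots in each section, on the log2 scale, with circles for tumor sections and squares for livers (Serpina3c, and Serpina3k in NEJ723, are left out for their few UMIs). In the livers Serpina1e is the copy farthest above 0 (0.68 to 1.53) and Serpina3k is above 0 (0.36 to 0.58), whereas in NEJ146 Serpina3k is far below 0 (-2.50 on average).

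Over all 7 tissues edgeR called 97 of 12345 genes (0.786%, of which 0.0405% higher and 0.745% lower) and 0 of the 8 copies tested, with 1986 genes at an unadjusted p under 0.05, while DESeq2 called 390 genes and 6 of the copies. In this edgeR fit the periportal ranking genes were themselves not called (edgeR adjusted p from 0.105 to 0.284), whereas the pericentral ones were (0.0021 to 0.017). A copy that was not called may therefore still differ. Leaving out 1 tissue in edgeR gave 43 (without NEJ638) to 239 genes (without NEJ146), with 4 copies called without NEJ146, 1 without NEJ723 and 0 otherwise. Serpina1e was closest to the threshold, higher by 0.96 (SE 0.18, edgeR adjusted p = 0.051), and it was higher in each of the 7 tissues, by 1.58 ± 0.12 in NEJ146 (SD, n = 4), 1.21 in NEJ634, 0.40 in NEJ687 and 0.11 in NEJ723. Serpina3k was split, at -2.50 ± 0.43 in NEJ146 (SD, n = 4), -0.14 in NEJ634 and -0.03 in NEJ687. In the tumors the score was not shown to mark a lobule. Their most pericentral-like bin reached scores of 0.51 to 0.82, against -0.34 to -0.59 in the livers. A score of -1 is all pericentral and 1 all periportal UMIs. In NEJ723 every spot of the periportal-like bin had a score of 1, so tied spots may have been placed in it by barcode order. Spots with fewer than 5 UMIs of the ranking genes were left out. This kept 89.9% of spots in NEJ723 and 89.0% in NEJ687, against 92.7% to 100% in the other sections. In NEJ146 the periportal gene Cyp2f2 was itself lower at the periportal-like end (-0.62). It was higher there in NEJ634 (1.71), NEJ687 (1.26) and NEJ723 (0.14).

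Within the tumors the spots were therefore also ranked by Afp, the oncofetal protein made by fetal hepatocytes and hepatoblastoma. In 4 of 4 tumors Serpina1e was higher where Afp was high, and in 3 of 4 Serpina3k was lower there, while Serpina1a to Serpina1d varied less. From the Afp-lowest to the Afp-highest of 5 bins, Serpina1e was at 272, 367, 599, 874 and 1095 CPM in NEJ634, and it went from 401 to 727 CPM in NEJ687, from 650 to 870 in NEJ723 and from 44.1 to 234 in section 1 of NEJ146. Its log2 differences were 2.01 in NEJ634, 0.86 in NEJ687, 0.42 in NEJ723 and 2.40 ± 0.21 in NEJ146 (SD, n = 4), higher in 4 of 4 tumors. Serpina3k was at 148, 41.2, 23.7, 13.3 and 10.4 CPM in NEJ634, at 169, 57.5, 39.6, 30.2 and 25.7 in NEJ687 and at 604, 189, 76.3, 70.8 and 59.9 in section 1 of NEJ146. Its log2 differences were -3.70 in NEJ634, -2.68 in NEJ687 and -3.26 ± 0.13 in NEJ146 (SD, n = 4), while in NEJ723, with 38 UMIs in the whole tissue, it was 0.14. In NEJ687 the level of the Afp-lowest bin was near the 168 CPM off its tissue.

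**Figure D4:**
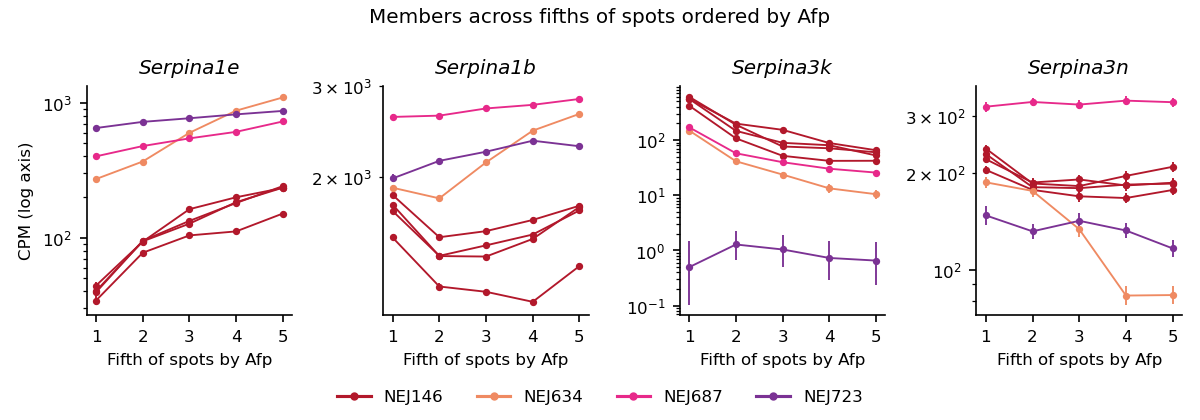
Level in CPM (log axis) of Serpina1e, Serpina1b, Serpina3k and Serpina3n over 5 bins of spots from the lowest to the highest Afp share, in each of the 4 tumors. Serpina1e climbs in all 4, from 272 to 1095 CPM in NEJ634, and Serpina3k descends in 3, from 148 to 10.4 CPM in NEJ634.

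An edgeR test of the Afp-high against the Afp-low bin over the 4 tumors with the tissue as a block, added after the data had been seen, called 21 of 12787 genes, all of them lower in the Afp-high spots (0.164%, with 0.0% higher). At an unadjusted p under 0.05 it had 1058 higher and 1397 lower genes. Afp itself, by which the spots were ranked, was higher by 1.84 (SE 0.38) but was not called (edgeR adjusted p = 0.110). A gene that was not called in this fit may therefore still differ. Serpina3k was 1 of the 21 and the 1 copy called, with a log2 difference of -3.21 (SE 0.33, edgeR adjusted p = 0.030). This call was lost without NEJ146 (edgeR adjusted p = 0.119), NEJ634 (0.344) or NEJ687 (0.077) and kept without NEJ723 (0.0118), and it was lost with 3 bins of spots in place of 5 (0.084). Serpina1e did not pass, with 1.43 (SE 0.32, edgeR adjusted p = 0.118, DESeq2 adjusted p = 0.00018), nor did Serpina3m, with -1.43 (SE 0.44, edgeR adjusted p = 0.173). By tumor, Serpina3m was at -2.14 ± 0.20 in NEJ146 (SD, n = 4), -2.43 in NEJ634, -0.42 in NEJ687 and -0.31 in NEJ723.

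The other copies showed small or mixed differences along Afp. Serpina1a to Serpina1d lay between -0.28 and 0.51 on the log2 scale over the 7 tumor sections, and Serpina3n was at -0.24 ± 0.05 in NEJ146 (SD, n = 4), -1.15 in NEJ634, 0.05 in NEJ687 and -0.34 in NEJ723. Depth moved with Afp in NEJ146, whose Afp-low bin had a median of 22793 to 30553 UMIs per spot and whose Afp-high bin had 14671 to 17568. Depth ran the other way in NEJ723 (medians of 13316 and 19987) and NEJ687 (9894 and 11655). In NEJ634 the medians were 30646 and 30357, and there the Serpina1e and Serpina3k differences were 2.01 and -3.70. Hepatocyte and neutrophil genes did not run one way along the same ranking. Cyp2f2 was at -3.07 in NEJ146, -2.63 in NEJ634 and -2.46 in NEJ687 but 0.31 in NEJ723, and albumin at -0.85, 0.64, 0.13 and 0.67 in NEJ146, NEJ634, NEJ687 and NEJ723. Apoa1 was higher in the Afp-high bin by 0.18 to 0.72 and Ttr by 0.07 to 0.93, in 4 of 4 tumors each. The neutrophil markers were at 1.72 in NEJ146, -2.05 in NEJ634, -0.53 in NEJ687 and -0.13 in NEJ723. Their part in the serpin differences was not tested. In NEJ146, NEJ634 and NEJ687 the Afp-low bins thus held more Serpina3k and more Cyp2f2 than the Afp-high bins.

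**Figure D5:**
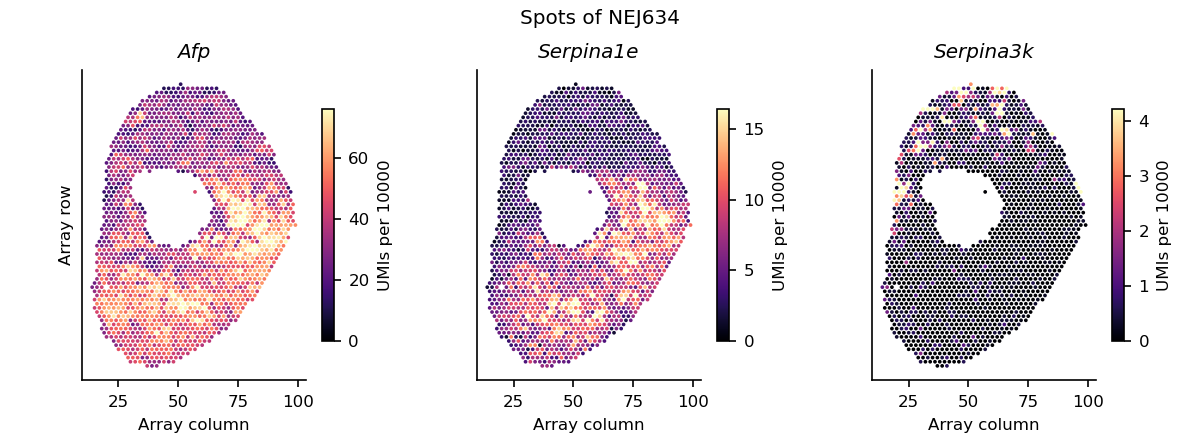
Spot maps of the tumor NEJ634 on the array grid, coloured by UMIs of Afp, Serpina1e and Serpina3k per 10000 UMIs of the spot, with each colour scale capped at the 98th percentile. Serpina1e covers the areas with high Afp (Moran's I 0.734 and 0.657), and Serpina3k is high in a few patches outside them (Moran's I 0.457).

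Spots were last ranked by the acute phase genes Saa1, Saa2, Saa3, Lcn2 and Orm2. In the tumors the score rested mostly on Lcn2 (90.3 to 159 CPM) and Saa3 (24.2 to 127 CPM), with Saa1, Saa2 and Orm2 at 0.55 or below in NEJ723, and Lcn2 is also a neutrophil granule gene. The neutrophil markers were higher in the acute-phase-high bin, by 2.12 ± 0.32 on the log2 scale in NEJ146 (SD, n = 4), 2.49 in NEJ634, 1.88 in NEJ687 and 1.33 in NEJ723, and their part in the values that follow was not tested. Between the highest and the lowest of 5 bins Serpina3k differed by 3.26 ± 0.60 on the log2 scale in NEJ146 (SD, n = 4), 2.68 in NEJ687 and 1.09 in NEJ634, by -0.04 in NEJ723 and by -0.05 to 0.05 in the livers. Serpina3n, for which the ranking was made, differed by 0.30 ± 0.04 in NEJ146 (SD, n = 4), 0.35 in NEJ634, 0.31 in NEJ687 and 0.40 in NEJ723, and by -0.01 to 0.06 in the livers. Serpina3n was thus higher in the acute-phase-high spots of 4 of 4 tumors, by less than Serpina3k in NEJ146, NEJ634 and NEJ687. Serpina1a to Serpina1d were also each higher there in 4 of 4 tumors, by 0.01 to 0.30 over the single sections. Serpina3m was higher in 4 of 4 tumors, by 0.47 (NEJ723) to 1.72 (NEJ146). Serpina1e was at -0.70 ± 0.36 in NEJ146 (SD, n = 4) and between -0.21 and 0.20 elsewhere. Cyp2f2 was higher in the same spots, by 3.32 in NEJ146, 1.38 in NEJ634 and 2.35 in NEJ687. Albumin was also higher there, by 1.41 in NEJ146, 0.41 in NEJ634, 0.55 in NEJ687 and 0.16 in NEJ723. Apoa1 was higher by 0.10 to 0.32 in each tumor, and Ttr differed by -0.02 to 0.31. The share of all genes that were higher in these spots was not computed. No test was made of this ranking.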

How the data were processed

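Visium libraries of 10 frozen sections from 7 tissues were analysed. The authors deposited whole-number UMI counts per gene and spot. The submitters' notes name Cell Ranger 6.0 for NEJ146, and Space Ranger 1.3 and the genome build mm10 for the other tissues, while every count table carries a Cell Ranger 4 header. The build used for NEJ146 is not given in the sources used here. Reads that match more than 1 gene equally well are dropped by this kind of counting, which lowers near-identical copies. Tissue spots were those marked by the authors, or, for NEJ146, which had no file of spot positions among the files used here, spots with 8000 or more UMIs, placed by the array coordinates that the same barcodes have in the other sections. This kept 4171 to 4878 of 4992 spots per NEJ146 section. Spots off the tissue of the other sections also held UMIs (Serpina1 sum 48.1 to 290 per spot, against 94.8 to 426 on the tissue). Spots off the tissue may therefore be among those counted for NEJ146. Sample labels gave each tissue's number and no tumor or liver group, so each tissue was its own group.

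Counts were summed over tissue spots and scaled to CPM. Log2 values used a pseudocount of 1 CPM, gaps and ranges were taken over genes with a mean of 10 CPM or more, and intervals are exact Poisson (95%). Spots were placed in 5 bins of equal size along each score. Sums per bin and tissue were tested with edgeR 4.0.16 (quasi-likelihood, TMM, Benjamini-Hochberg, tissue as a block, R 4.3.3), with the 4 NEJ146 sections summed and DESeq2 1.42.0 as the alternative. Both sums of a tissue come from the same section, which is where the pairing comes from. The scripts were tested on simulated data. Nothing says that tissues were matched, and the p-values rest on how the difference between the bins varied among these tissues. The 4 sections of NEJ146 differed by more than sampling noise (chi-square per degree of freedom 14.8 to 91.6). They were kept separate for the values per section, averaged for the gaps and summed for the tests. Gene positions are from GENCODE M21, promoters from RefSeq (GRCm38.p6). All 9 copies are named. The other gene lists, and for likeness the 3 genes with the highest correlation, followed written rules. The copies, lists and tests were chosen with earlier results of these data known. Beyond the 5 transcription factors given, a further factor of the written list is not reported here.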

Additional observations from a re-analysis of the deposited data

Results flagged for a closer look

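Serpin UMIs were also found on spots that the authors did not mark as tissue. In the spots off the tissue the Serpina1 sum was 5589 CPM in NEJ634 (6309 on the tissue), 6125 in NEJ687 (7359), 4764 in NEJ723 (7233), 17117 in NEJ638 (17112), 23317 in NEJ654 (24114) and 23965 in NEJ677 (26438). The Serpina3 sum off the tissue was 252 CPM in NEJ634 (210 on the tissue), 513 in NEJ687 (449), 114 in NEJ723 (156), 8098 in NEJ638 (8207), 5183 in NEJ654 (4743) and 9557 in NEJ677 (9061). Both sums were higher off the tissue of each liver than off the tissue of each tumor. In CPM Serpina3k was higher off than on the tissue in 6 of 6 sections, by the least in NEJ638 (7335 against 7309 CPM) and at 168 against 59.9 CPM in NEJ687. In UMIs per spot it was lower off the tissue in NEJ634, NEJ638, NEJ654 and NEJ677, for example 1.02 against 1.47 in NEJ634. These spots entered no comparison, and RNA of 1 spot can likewise reach its neighbours within the tissue, which was not tested.

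Some differences between bins of spots ran in opposite directions in different tissues, and these differences were not tested. Between the periportal-like and pericentral-like bins, Serpina3k differed by 0.58 on the log2 scale in NEJ638, 0.36 in NEJ654 and 0.52 in NEJ677, but by -2.87 to -1.89 in the 4 sections of NEJ146. Serpina3c differed by 0.49 in NEJ638 and by -1.58 to -1.37 in the NEJ146 sections, and Serpina3n by 0.31 in NEJ677 and by -0.28 to -0.17. Between Afp-high and Afp-low bins, Serpina1d differed by 0.51 in NEJ634 and by -0.28 to -0.17 in the NEJ146 sections.

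Among the 4 sections of NEJ146, 2 of 54 sets of values held a section far from the other 3, fewer than the 1 in 20 that chance gives. Serpina1c made up 18.4% of Serpina1 UMIs in section 2 and 18.2% in each of the others, and Moran's I of Serpina1d was 0.248 in section 3 and 0.185 to 0.192 in the others.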

How the results depend on the processing

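Of 471 alternative values for 53 results, 377 kept their direction and side of the threshold or moved by less than the section spread, 19 were weaker, 18 stronger, 11 reversed and 46 moved. With median-of-ratios scaling, which moved the median of all genes by -0.05 in NEJ146, -0.45 in NEJ634, -0.29 in NEJ687, -0.39 in NEJ723, 0.00 in NEJ638, 0.14 in NEJ654 and 0.27 in NEJ677, the gap was 1.52 for the Serpina1 sum, 3.62 for the Serpina3 sum and 0.25, reversed, for Serpina3n. With a gap of 2 in place of 1, 1 copy and 114 genes were lower. For the bins along the lobule score over 7 tissues, DESeq2 called 390 genes and 6 copies, edgeR with DESeq2 size factors 1 copy, no filter 332 genes and 3 copies, 3 bins 1 copy, and Cyp2f2 against Cyp2e1 alone 158 genes and 1 copy, with Serpina3k at 1.14, Serpina3m at 0.12 and Serpina3n at 0.066, all reversed. Without the replicate block 0 genes were called, with Serpina3k at 0.53 and Serpina3n at 0.040, both reversed. Leaving out each tissue gave 43 to 239 genes and 0 to 4 copies, Serpina3k between -0.28 and 0.30 and Serpina3n between -0.13 and 0.017. Over the 3 livers DESeq2 called 907 genes, the fit without the replicate block 112 genes and 0 copies, and leaving out each liver gave 1005 to 2030 genes and 6 to 8 copies, where the 8 without NEJ677 count Serpina3c, which then passes the filter on low counts. Along Afp, DESeq2 called 463 genes and 2 copies, 3 bins 5 genes and 0 copies with Serpina1c reversed at 0.015, and the fit without the replicate block 0 genes and 0 copies. Leaving out each tumor gave 0 to 83 genes and 0 to 1 copies, with Serpina1c between -0.10 and 0.057 and Serpina1d between -0.037 and 0.30. The 4 alternatives for Moran's I gave 60 to 79 combinations. The cause of each change was not tested. The livers are 3 sections and the tumors 4 tissues, so values without a replicate carry counting error only, Serpina3k in NEJ723 rests on 38 UMIs, and the lobule score rests on a median of 28 to 48 UMIs per spot in the tumors.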
